A study of Homo sapiens with 9 samples.

Results

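The inhibitor genes of the cyclin-dependent kinases (CDKs) were followed across 9 arrays of RKO, a human colorectal cancer cell line. The members were CDKN1A, CDKN1B, CDKN2A, CDKN2B, CDKN2C, CDKN2D and CDKN3, taken as every probe for a transcript that carried one of these gene names. They came to 7 of 36400 gene names and to 10 of 50599 probes on the array. Cells received a control siRNA (siCONT) or 1 of 2 siRNAs against UHRF1 (siUHRF1-1 and siUHRF1-2) for 72 h, and were then kept in ethanol (mock) or in trichostatin A (TSA, 300 nM) for 24 h more. This gave 4 groups of 2 arrays, named siCONT, siUHRF1, siCONT + TSA and siUHRF1 + TSA, in which the 2 siUHRF1 arrays of a group each held a different siRNA. A single further array held RKO cells without siRNA that had been kept for 72 h in 5-aza-dC (decitabine, 1 µM). The labels do not say whether the arrays of a group came from separate cultures. The p-values therefore measure the spread between these arrays, which may be technical. In the siUHRF1 groups this spread also holds any difference between the 2 siRNAs. Paired arrays lay apart by a median of 0.261 (absolute log2) in siUHRF1 and 0.19 in siUHRF1 + TSA. In siCONT and siCONT + TSA the medians were 0.0699 and 0.0756. The main test pools these unequal spreads.

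CDK inhibitors restrain the cell cycle by binding CDKs or their cyclin complexes. The CIP/KIP proteins p21 (CDKN1A) and p27 (CDKN1B) act on several cyclin-CDK complexes, whereas the INK4 proteins p16 (CDKN2A), p15 (CDKN2B), p18 (CDKN2C) and p19 (CDKN2D) bind CDK4 and CDK6 and so keep the RB protein active. CDKN3 encodes a phosphatase that removes the activating phosphate from CDK2, and by this known function it belongs to neither family. The CpG island of CDKN2A is a frequent site of DNA methylation in colorectal cancer. UHRF1 guides the maintenance methyltransferase DNMT1 to newly replicated DNA, 5-aza-dC traps DNA methyltransferases, and TSA inhibits histone deacetylases.

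As a check of the knockdown, the log2 level of UHRF1 differed from siCONT by -2.47 ± 0.14 (SE) in siUHRF1 and by -3.17 ± 0.14 in siUHRF1 + TSA (adjusted p = 0.00238 and 0.000113). An array had 43.6% to 51.6% of its probes above the background limit and no saturated spot. Of 8 colon epithelial markers, KRT8, KRT18 and CDX2 were above background on all 8 siRNA arrays and VIL1 and CDH1 on none. COL1A1, CD68 and CDH5, from lists of fibroblast, immune and endothelial markers, were above background on all 8 as well, while COL3A1, CD3E and PECAM1 were on none. Some of the markers from outside the epithelium were higher in siUHRF1 + TSA, where CDKN2A and CDKN3 were called against siCONT. COL1A1 lay at -2.89 and -2.53 in siCONT and at -1.51 and -0.56 in siUHRF1 + TSA (1.67 ± 0.42, adjusted p = 0.0364). COL1A2, DCN and PDGFRB were above background on no siCONT array and on both siUHRF1 + TSA arrays, as were VWF and the epithelial KRT19. The summed level of the 5 fibroblast markers, on a linear scale where 1 is the 75th percentile of the array, was 0.186 to 0.235 in siCONT, 0.25 to 0.455 in siUHRF1, 0.45 to 0.477 in siCONT + TSA and 0.759 to 1.09 in siUHRF1 + TSA, and 0.559 on the 5-aza-dC array. Between siCONT and siUHRF1 + TSA the sum of the 3 endothelial markers was 0.158 to 0.162 against 0.548 to 0.681, and that of the 8 epithelial markers 50 to 50.4 against 76.8 to 94. The endothelial rise was that of VWF, at -1.08 and -0.77 in siUHRF1 + TSA. CDH5 went the other way, from -3.43 and -3.34 to -4.04 and -3.72. KRT18 made up most of the epithelial sum, at 5.42 and 5.45 in siCONT and 6.11 and 6.38 in siUHRF1 + TSA. The part of these markers in the results for the inhibitor genes was not tested. All 8 siRNA arrays lay on 1 slide, with mock arrays in its first row and TSA arrays in its second, so that row and TSA cannot be told apart. Nor can column and siRNA, since siCONT held columns 1 and 2 and siUHRF1 columns 3 and 4. The 5-aza-dC array was on a second slide with a scan of its own, and its 75th percentile of signal was 822 against 245 to 338 on the other arrays.

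CDKN1B, CDKN2A and CDKN3 had a pair of probes each, and the sequences below are those that lie in coding exons, shown because the probes of these genes did not measure the same stretch of the transcript. For CDKN2A, probe A_33_P3411628 lies at chr9:21970901-21970960 (hg19, minus strand), in the exon that the p16 and ARF transcripts share, and A_23_P43490 lies nearer the 3′ end at chr9:21968039-21968098. Neither tells p16 from ARF, the other protein of this locus. For CDKN1B, A_23_P204696 lies in the coding sequence at chr12:12871119-12871178 (plus strand), and A_24_P81841, printed on 10 spots of each array, lies downstream at chr12:12874940-12874999. For CDKN3, A_33_P3307903 lies at chr14:54866634-54866693 (plus strand), and A_23_P48669 spans a splice junction between chr14:54878384 and 54882635.
CDKN2A, A_33_P3411628: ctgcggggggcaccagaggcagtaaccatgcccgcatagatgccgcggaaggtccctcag
CDKN1B, A_23_P204696: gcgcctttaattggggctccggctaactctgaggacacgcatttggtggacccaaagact
CDKN3, A_33_P3307903: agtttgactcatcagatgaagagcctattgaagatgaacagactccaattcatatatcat

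DNA methylation, the mark that 5-aza-dC lowers and that UHRF1 helps to maintain, is set on the CG dinucleotide, so the 250 bases before the RefSeq starts of the 3 genes with the clearest changes are given from GRCh38.p14 with each CG in capitals. All 7 members matched a RefSeq promoter, with 10 starts in all.
CDKN2A, p16 start, chr9:21974858-21975107, minus strand: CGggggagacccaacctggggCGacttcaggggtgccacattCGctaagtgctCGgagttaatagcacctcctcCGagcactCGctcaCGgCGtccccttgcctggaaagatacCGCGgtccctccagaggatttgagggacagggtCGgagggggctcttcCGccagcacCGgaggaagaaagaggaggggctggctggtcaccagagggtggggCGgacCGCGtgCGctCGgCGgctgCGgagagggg
CDKN2A, ARF start, chr9:21995325-21995574, minus strand: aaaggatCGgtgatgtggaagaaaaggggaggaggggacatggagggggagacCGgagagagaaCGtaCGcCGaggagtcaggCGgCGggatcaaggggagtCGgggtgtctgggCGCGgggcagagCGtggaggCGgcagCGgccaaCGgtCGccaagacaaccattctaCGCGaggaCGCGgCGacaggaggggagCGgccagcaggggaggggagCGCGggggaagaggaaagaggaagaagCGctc
CDKN2D, chr19:10568980-10569229, minus strand: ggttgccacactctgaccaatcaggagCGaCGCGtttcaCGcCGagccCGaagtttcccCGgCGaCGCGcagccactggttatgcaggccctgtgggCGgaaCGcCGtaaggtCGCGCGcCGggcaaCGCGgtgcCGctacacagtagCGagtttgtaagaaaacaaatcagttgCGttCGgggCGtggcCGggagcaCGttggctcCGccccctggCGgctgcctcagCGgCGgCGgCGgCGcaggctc
CDKN3, chr14:54396757-54397006, plus strand: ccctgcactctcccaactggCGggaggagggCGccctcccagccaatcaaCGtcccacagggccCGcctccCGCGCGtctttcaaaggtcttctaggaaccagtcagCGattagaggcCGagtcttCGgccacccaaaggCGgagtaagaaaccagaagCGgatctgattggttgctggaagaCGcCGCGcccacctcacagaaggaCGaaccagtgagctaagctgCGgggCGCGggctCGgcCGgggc

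The p16 start had 20 CG in this stretch, the ARF start 24, CDKN2D 33 and CDKN3 21, against a median of 11 over 35116 promoters. As many as 33 CG were found in 8.15% of all promoters and 20 or more in 32.4%. CDKN1A and CDKN1B had 27 each and CDKN2B 18. The 3 CDKN2C starts ranged from 7 to 35. The GC box GGGCGG, searched on both strands, occurred 5, 1 and 0 times before the CDKN2C starts, 4 times before CDKN1A, 2 times before CDKN2B and CDKN2D, once before CDKN1B and the p16 start, and not in the stretches shown for the ARF start and CDKN3, while 42.6% of all promoters held at least 1. The CHR element TTTGAA, known from promoters of genes used late in the cell cycle, occurred once before CDKN3 (on the minus strand, as ttcaaa) and before no other member, against 13.3% of all promoters with at least 1. The counts describe letters in a window and carry no measure of methylation or binding.

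Levels below are log2 processed signals minus the 75th percentile of the same array, and they are compared between arrays for 1 probe at a time. A gene was called where its brightest probe had an adjusted p below 0.05 in limma. All 7 members passed the filter on dim probes, CDKN2B only through the siUHRF1 + TSA arrays, where it was high, and A_33_P3411628 of CDKN2A only in the fit that held the 5-aza-dC array.

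**Figure D1:**
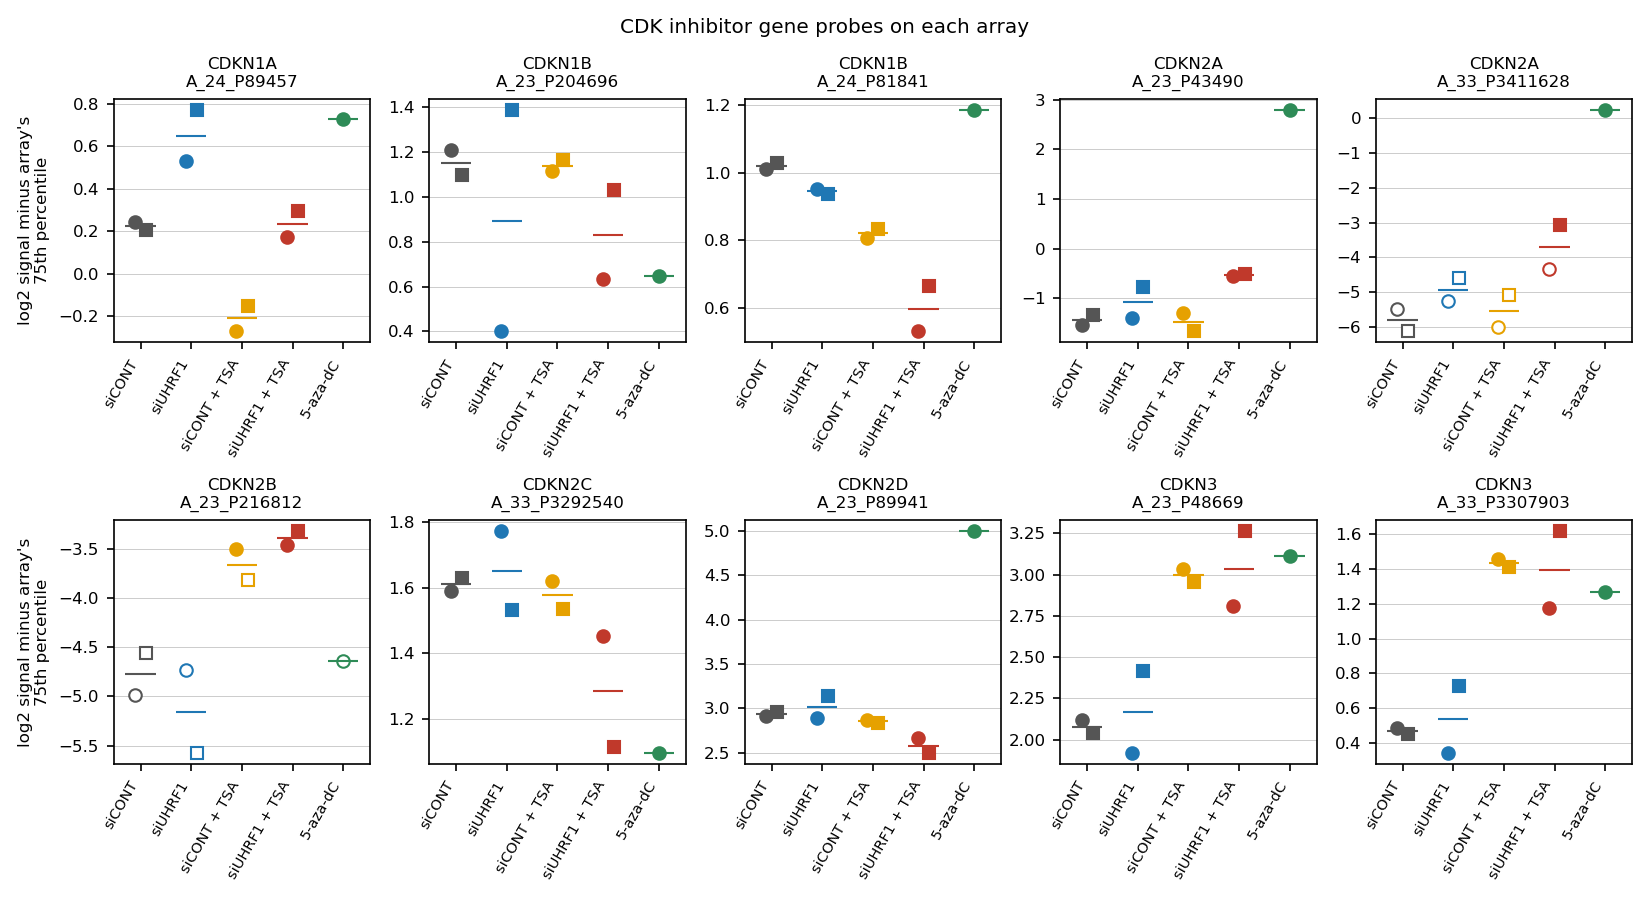
Levels of the 10 probes on each array, as log2 signal minus the array's 75th percentile, with a vertical scale of its own in each panel. Circles are replicate or siRNA 1, squares replicate or siRNA 2, open symbols were not well above background, and lines are group means. CDKN3 separated mock from TSA arrays with both probes, and CDKN2A was highest on the 5-aza-dC array with both probes.

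UHRF1 depletion alone called 0 of the 7 inhibitor genes in limma. The per-probe t-test at an unadjusted p below 0.05 gave 0 by their brightest probes, beside 7.79% of all probes. The other CDKN1B probe, A_24_P81841, passed that t-test, lower in siUHRF1 (unadjusted p = 0.0193). In limma an unadjusted p below 0.05 gave 1 of 7 (CDKN1A), a rule that 8.91% of all probes passed. Among all 17777 gene names tested, 0.641% were called, 0.608% higher and 0.0338% lower. CDKN1A had the largest difference of the members with a measured level in both groups. Its level was 0.25 and 0.21 in siCONT and 0.53 and 0.77 in siUHRF1. Both siUHRF1 arrays were thus above both siCONT arrays, by 0.42 ± 0.12 (SE), or 1.34-fold, with an unadjusted p of 0.0109 and an adjusted p of 0.33. The 95% interval of this difference ran from 0.14 to 0.71. CDKN2A differed by 0.36 ± 0.23 (adjusted p = 0.76) with overlapping arrays, CDKN2C, CDKN2D and CDKN3 by 0.04 to 0.09, and the CDKN1B probes by -0.08 and -0.26. CDKN2B was not above background in either group. The median difference was 0.08 over the 7 members and -0.0013 over all gene names.

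TSA in control cells called 1 of 7 members, CDKN3, against 10.8% of all gene names (6.97% higher and 3.87% lower). A fit of these 4 arrays alone, without the more widely spread siUHRF1 arrays, called 44.1% of all probes, against 10.4% in the main fit. That fit called CDKN3 higher and CDKN1A lower. With probe A_23_P48669, CDKN3 stood at 2.12 and 2.04 in siCONT and at 3.03 and 2.96 in siCONT + TSA. The groups were well apart, and CDKN3 rose 1.89-fold (log2 difference 0.92 ± 0.21, adjusted p = 0.0449). Fewer cells with the transcript and less of it per cell cannot be told apart in such bulk RNA, nor can their opposites. The second probe went from 0.49 and 0.45 to 1.46 and 1.41, a 1.95-fold rise (adjusted p = 0.0293). The first of these calls was lost, with the same direction, in 11 of 25 other settings, among them quantile normalization and the omission of any 1 of the 4 arrays compared. Such an omission left 1 array in a group, and far fewer of all probes were then called. Over the 25 settings the difference ran from 0.70 to 1.10.

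CDKN1A, which is often induced by histone deacetylase inhibitors in other settings, did not pass the test after TSA. Its levels of -0.27 and -0.15 in siCONT + TSA were both below those of siCONT, by 0.44 ± 0.12 (interval -0.72 to -0.15, unadjusted p = 0.0098, adjusted p = 0.069). This difference was called in 9 of 25 other settings, all with the same direction, among them the fits without either siUHRF1 array. Without a siUHRF1 array more of all probes were called. In UHRF1-depleted cells the same step with TSA, from 0.53 and 0.77 to 0.17 and 0.30, had a similar size of -0.42 ± 0.12 (adjusted p = 0.0636). With the arrays paired by siRNA and number, CDKN1A was called lower in both backgrounds, and CDKN2C also became called lower in the UHRF1-depleted cells. The TSA arrays were lower in both backgrounds without overlap. The other siRNA effect, siUHRF1 + TSA against siCONT + TSA, was 0.44 ± 0.12 (adjusted p = 0.124). The end points therefore lay together, at a difference of 0.01 ± 0.12 between siUHRF1 + TSA and siCONT with an interval of -0.28 to 0.30.

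**Figure D2:**
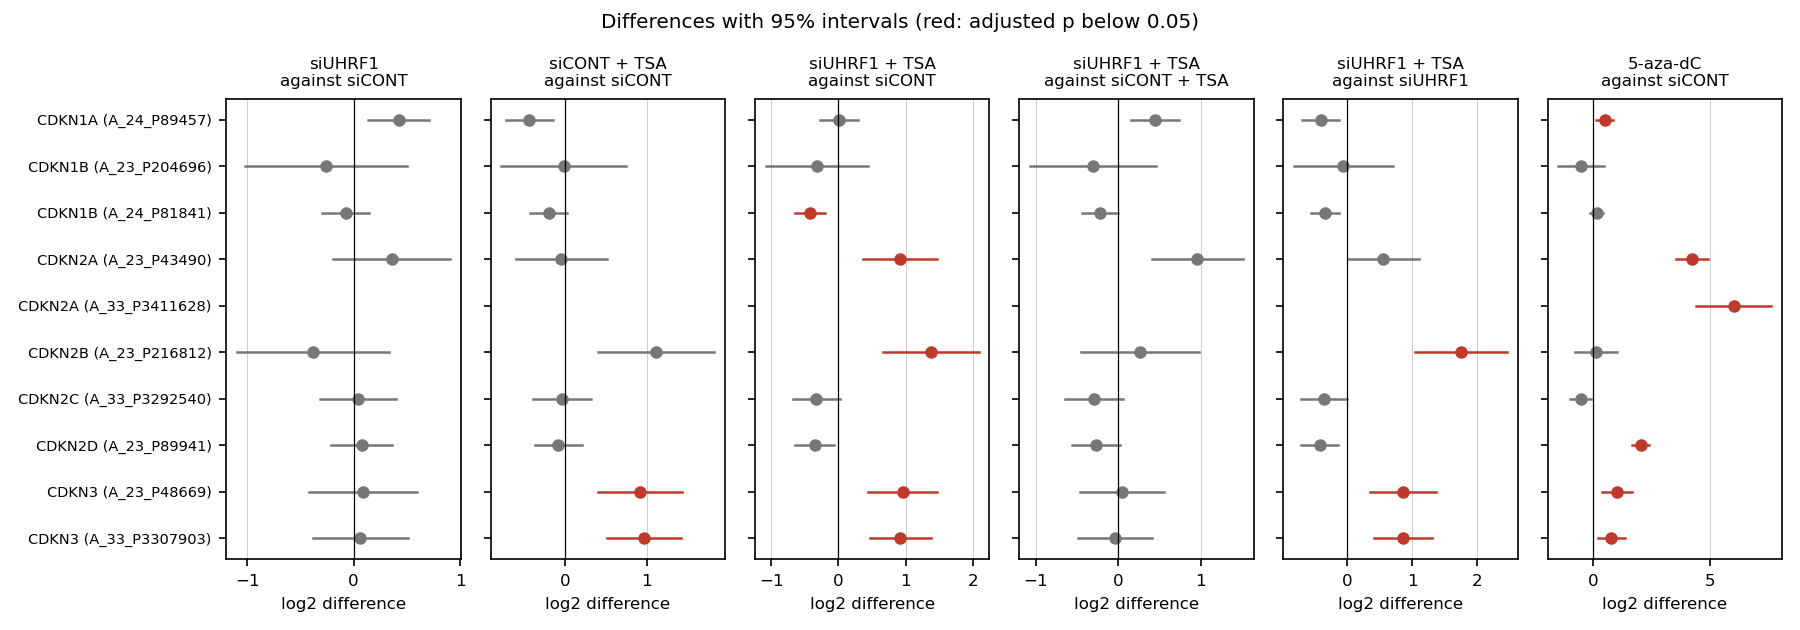
Log2 differences of the 10 probes in 6 comparisons, as points with 95% intervals of the moderated test, each panel with its own scale. Red marks an adjusted p below 0.05, and a missing point is a probe that did not pass the filter on dim probes in that fit. CDKN2A reached 4.24 and 6.03 under 5-aza-dC, and CDKN3 lay near 0.9 in each comparison of TSA with mock. Fitted values of CDKN2B and of A_33_P3411628 set a measured group against one below background, for which the text gives folds by a rule for dim arrays. Their red marks rest on a filter passed through the high group.

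UHRF1 depletion with TSA called CDKN2A and CDKN3 against siCONT, both higher, while 24.2% of all gene names were called (16.1% higher and 8.08% lower). CDKN2B would make this 3 of 7, but it entered the test only through the arrays where it was high, so its call is no support. Without the filter on dim probes 0 of 7 were called, beside 7.27% of all probes. The median difference of the members was 0.01, below the 0.07 of all gene names.

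CDKN2A, the p16 and ARF gene, was dim in siCONT, at -1.55 and -1.34 with A_23_P43490. It was at -1.39 and -0.78 in siUHRF1, at -1.30 and -1.67 in siCONT + TSA, and at -0.55 and -0.50 in siUHRF1 + TSA. The siUHRF1 + TSA arrays were the highest of the 8, and siUHRF1 with siUHRF1-2 came next. CDKN2A rose 1.89-fold against siCONT (0.92 ± 0.23, adjusted p = 0.0335). Against siCONT + TSA the difference was 0.96 ± 0.23 (adjusted p = 0.0915) and against siUHRF1 it was 0.56 ± 0.23 (adjusted p = 0.149), both with no overlap of arrays. The call against siCONT was lost without any 1 of the siCONT, siCONT + TSA or siUHRF1 + TSA arrays, with adjusted p-values up to 0.171 over all 24 other settings. The second probe, A_33_P3411628, was well above background on 1 siRNA array alone, that of siUHRF1-2 with TSA at -3.07. With siUHRF1-1 and TSA it was at -4.34, and on the other 6 arrays it lay between -6.12 and -4.59.

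CDKN2B, which neighbours CDKN2A on chromosome 9 and encodes p15, was near the limit of detection. It was not well above background on any siCONT or siUHRF1 array, where levels ran from -5.57 to -4.56. In siCONT + TSA it was above background on 1 of 2 arrays, at -3.50 and -3.82, and in siUHRF1 + TSA on both, at -3.47 and -3.33. Every TSA array was therefore above every mock array. Each dim array was set at its lowest signal above background or the probe's own, whichever was higher. By this rule CDKN2B was 1.90-fold higher in siUHRF1 + TSA than in siCONT and 2.11-fold higher than in siUHRF1. The rule gives no strict lower limit. On the siCONT + TSA array at -3.82 the probe was not above background, though the lowest signal above background there was -4.08. With no filter on dim probes the adjusted p over all 50599 probes was 0.063 against siCONT and 0.0486 against siUHRF1. With normexp background correction the fitted difference from siCONT was 0.32 in place of 1.38.

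CDKN3 reached 2.81 and 3.26 in siUHRF1 + TSA with A_23_P48669 and 1.17 and 1.61 with A_33_P3307903. It rose 1.94-fold against siCONT (0.96 ± 0.21, adjusted p = 0.0232), and the second probe rose 1.90-fold (adjusted p = 0.0176). Against siCONT + TSA the probes differed by 0.04 and -0.04, with intervals of -0.47 to 0.55 and -0.49 to 0.41. Without siUHRF1-2 + TSA, or without either siCONT array, the call against siCONT was lost for both probes, and for A_23_P48669 also without either siCONT + TSA array. Neither probe passed in the per-probe t-test at an unadjusted p below 0.05, which 29.8% of all probes passed. Neither was called without the filter on dim probes, and A_23_P48669 did not pass Tukey's test.

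The CDKN1B probes were both lower in siUHRF1 + TSA than in siCONT, and 1 of them was called. A_24_P81841, the mean of 10 spots, went from 1.01 and 1.03 in siCONT to 0.53 and 0.66 in siUHRF1 + TSA, and fell by 0.42 on the log2 scale (SE 0.09, adjusted p = 0.0224). The call was lost with spike-in or normexp values and without any 1 of the siCONT arrays, the siCONT + TSA arrays or siUHRF1-1 + TSA. Each of these fits called fewer of all probes. Over 24 other settings the difference ran from -0.49 to -0.14. The level was in between in siUHRF1 (0.95 and 0.94) and in siCONT + TSA (0.81 and 0.83). A_23_P204696, which stands for the gene as its brightest probe, stood at 1.21 and 1.10 in siCONT, and it was at 0.40 with siUHRF1-1 but 1.39 with siUHRF1-2. With TSA these siRNAs gave 0.63 and 1.03. Its difference of -0.32 ± 0.31 between siUHRF1 + TSA and siCONT had an adjusted p of 0.50, and an interval of -1.08 to 0.44 that holds the value of the other probe.

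CDKN2C and CDKN2D, the INK4 genes that were bright in every group, did not pass the test in any comparison of the siRNA arrays with the settings used here for calls. CDKN2C lay at 1.59 and 1.63 in siCONT and at 1.45 and 1.12 in siUHRF1 + TSA, a difference of -0.33 ± 0.15 (adjusted p = 0.158). CDKN2D lay at 2.91 and 2.96 in siCONT and at 2.66 and 2.50 in siUHRF1 + TSA, a difference of -0.35 ± 0.12 (adjusted p = 0.0797). Both siUHRF1 + TSA arrays were below both siCONT arrays for each gene. CDKN2D was called lower in 6 of 24 other settings in this comparison and in 6 of 25 against siUHRF1, where CDKN2C was called lower in 2 of 25. Quantile normalization and the percentile over detected probes were among those for CDKN2D.

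Among TSA-treated cells, siUHRF1 + TSA against siCONT + TSA called 0 of 7 members, beside 3.85% of all gene names (3.27% higher and 0.574% lower). By their brightest probes CDKN1A and CDKN2A, 2 of 7, had an unadjusted p below 0.05 there, both higher, beside 17.4% of all probes. Tukey's test called CDKN1A alone, beside 9.27% of all probes. CDKN2A was called when either siUHRF1 array was left out, and more of all probes were called in these fits too. Among UHRF1-depleted cells, TSA against mock called CDKN3 higher, and CDKN2B through the filter that its own rise decided, beside 16.3% of all gene names (10.8% higher and 5.48% lower). CDKN3 rose 1.82-fold in this step (0.86 ± 0.21, adjusted p = 0.0421). The CDKN3 call ended when any 1 of the 8 arrays was left out, except for siUHRF1-2 without TSA. Fewer of all probes were called in the fits that ended it, and the difference ran from 0.62 to 1.11 over 25 other settings.

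The test of whether UHRF1 depletion acted differently with TSA than without it called 0 of 7 members, against 0.388% of all gene names (0.36% higher and 0.0281% lower). At an unadjusted p below 0.05 the count was also 0, beside 4.91% of all probes. The difference of effects was 0.60 ± 0.32 for CDKN2A (interval -0.18 to 1.38) and 0.02 ± 0.17 for CDKN1A (interval -0.39 to 0.43). For CDKN2D it was -0.35 ± 0.17 (interval -0.76 to 0.06).

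The 5-aza-dC array called 4 of 7 members against siCONT, all higher, beside 49.3% of 20413 gene names tested (25.5% higher and 23.8% lower). This test rests on 1 treated array, assumed to vary like the others, and 5-aza-dC cannot be told apart from the slide, the scan and the lack of an siRNA. CDKN2A was at 2.80 with A_23_P43490, above all 8 siRNA arrays, of which the highest was at -0.50. It was 18.9-fold above siCONT (4.24 ± 0.28, adjusted p = 0.00015). With A_33_P3411628 it was at 0.23, or 23.4-fold higher by the rule used for CDKN2B than siCONT, where this probe was not above background. CDKN2D was at 4.99 against 2.91 and 2.96 in siCONT, 4.16-fold higher (adjusted p = 0.000191), whereas its siRNA arrays did not exceed 3.13. CDKN3 was 2.05-fold higher (1.03 ± 0.26, adjusted p = 0.0209), and at 3.11 it lay within the 2.81 to 3.26 of the TSA arrays. CDKN1A was at 0.73, 1.42-fold higher than siCONT (adjusted p = 0.0332) and within the range of the siUHRF1 arrays. CDKN2B at -4.64 was not above background here. CDKN2C at 1.10 differed by -0.51 ± 0.18 (adjusted p = 0.0601), and the CDKN1B probes differed in sign, at 0.17 and -0.51, with neither called. In 7 of 20 other settings CDKN2C was called lower, and in 2 of 20 so was A_23_P204696 of CDKN1B. Spike-in scaling and a fit of only the arrays compared were among those for both. The calls of CDKN1A and CDKN3 ended without either siCONT array, and that of CDKN1A also without either siCONT + TSA array. In these fits, too, fewer of all probes were called.

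Directions under 5-aza-dC depended on the scaling. With the spike-in spots as reference the median of all probes moved by -1.31. CDKN1A and CDKN3 then stood at -0.81 and -0.28 against siCONT, with neither called. That scaling called 4 of 7 members, CDKN2A higher and CDKN1B, CDKN2B and CDKN2C lower, beside 67.1% of all probes. CDKN2C stood at -1.83 (adjusted p = 0.00097) and CDKN1B at -1.82 with A_23_P204696 (adjusted p = 0.00102). CDKN2B was below background in both groups. Relative to the shifted median of all probes the differences were 4.23 for CDKN2A, 2.04 for CDKN2D, 1.02 for CDKN3 and 0.49 for CDKN1A. For CDKN2C and A_23_P204696 of CDKN1B they were -0.53 and -0.52. On the spike-in scale itself CDKN2A stayed higher, by 2.93 with A_23_P43490 (adjusted p = 9.76e-08), and CDKN2D by 0.74 (adjusted p = 0.176). By the rule for dim arrays A_33_P3411628 of CDKN2A was 9.43-fold higher. For the siRNA arrays the spike-in reference moved the median of all probes by 0.40 in siUHRF1 against siCONT, by 0.18 in siCONT + TSA and by 0.28 in siUHRF1 + TSA. Relative to the shifted median, CDKN3 stood 0.85 higher in siCONT + TSA and 0.90 higher in siUHRF1 + TSA, and CDKN2A 0.86 higher in siUHRF1 + TSA.

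For the genes that act with these inhibitors, the calls in siUHRF1 + TSA against siCONT stand beside 16.1% of all gene names called higher and 8.08% lower. The shares of the RB and E2F list and of the regulators were near or below these. Those of the short list of cyclins and CDKs were above them, which was not tested. Among 12 of 13 cyclins and CDKs tested, 3 were called higher and 2 lower, at a median of 0.02. CCNB1, the mitotic cyclin, rose by 1.33 ± 0.09 (adjusted p = 0.000481) and CCND3, a partner of CDK4 and CDK6, by 0.67 ± 0.11. CDK6 and CDK2 fell by 0.79 and 0.66. Among 13 RB proteins and E2F factors, 2 were called higher and 1 lower, with E2F3 at 0.62, E2F6 at 0.52 and RBL1, the RB relative p107, at -0.80. Of 17 known regulators of the inhibitors, ZBTB17 (MIZ1, an activator of CDKN2B and CDKN1A) rose by 0.61 and SMAD3 by 0.45, while EZH2, the polycomb methyltransferase, fell by 0.84. With the spike-in reference 1 cyclin was called higher and no gene of the other 2 lists, and the medians of the 3 lists were 0.30, 0.05 and 0.38 against 0.34 over all probes.

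Of 20 other p53 target genes, 9 were called lower and 1 higher in siUHRF1 + TSA against siCONT, at a median of -0.40, beside the 8.08% of gene names called lower. SESN2 and GADD45A, both stress response genes, fell by 1.84 and 1.45, and TP53I3 rose by 1.42. In siCONT + TSA against siCONT 7 were lower and 1 higher, at a median of -0.35, beside 3.87% of gene names called lower. There 3 were lower and 0 higher with normexp, and none was called in either direction with spike-ins. MDM2, the p53 ubiquitin ligase, differed by 0.04 ± 0.27 in siUHRF1 + TSA. Under the spike-in reference 2 were lower and 1 higher in siUHRF1 + TSA, at a median of -0.12 against 0.34 over all probes.

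CDKN1C, the third CIP/KIP gene and not among the members, rose 2.32-fold in siUHRF1 + TSA against siCONT (1.22 ± 0.20, adjusted p = 0.00956) and 1.99-fold against siUHRF1 (adjusted p = 0.0264). MTAP, next to CDKN2A on chromosome 9, rose by 0.39 ± 0.11 (adjusted p = 0.0491). DMRTA1, on the other side of CDKN2B, was called lower but was not above background on any array of the groups compared, so it has no level to give.

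**Figure D3:**
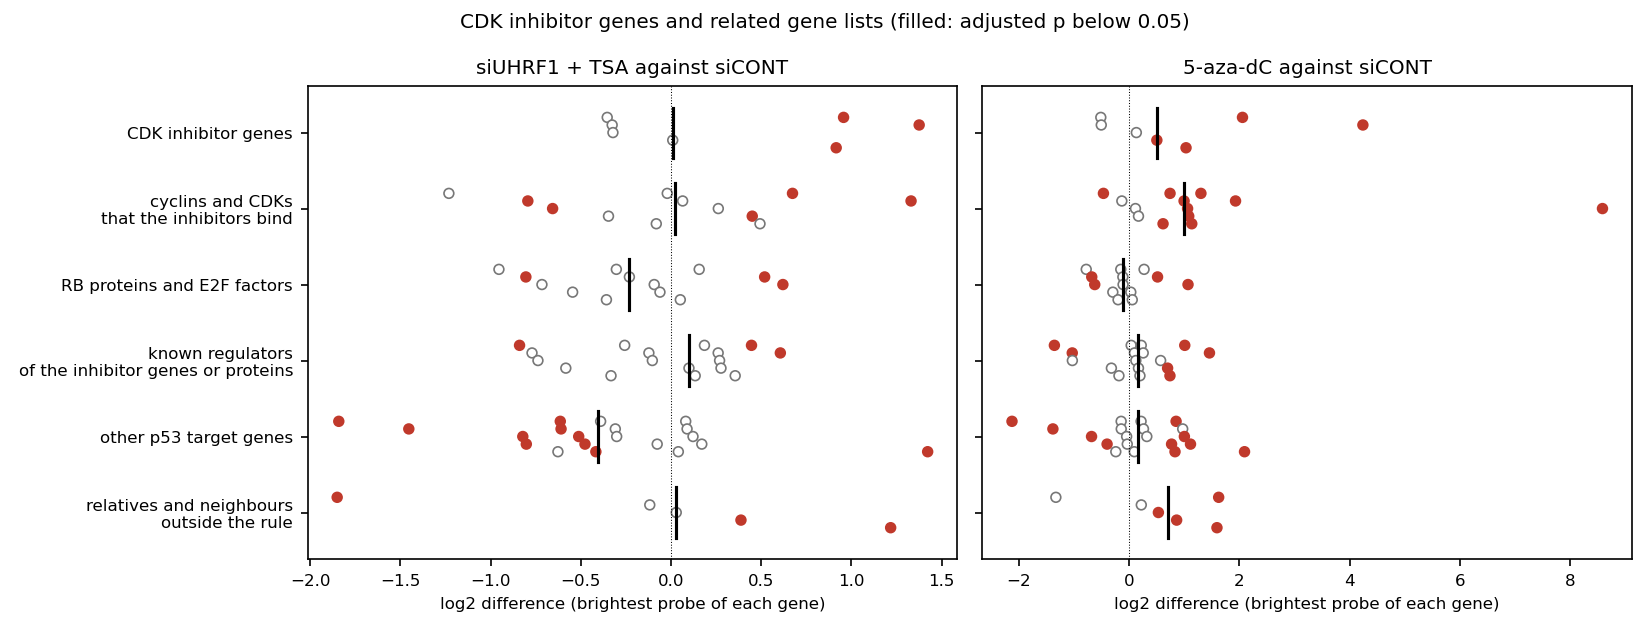
Log2 differences of the inhibitor genes and of the 5 related lists, 1 point per gene by its brightest probe, for siUHRF1 + TSA and for 5-aza-dC, each against siCONT. Filled points had an adjusted p below 0.05 and black bars are medians, at 0.01 for the inhibitor genes and -0.40 for other p53 targets in siUHRF1 + TSA.

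The profiles most like those of CDKN2A and CDKN3 over the 8 siRNA arrays were found among 15652 other genes above background on all 8, as the root mean square difference of log2 changes from siCONT. Names among these that could not be matched to a single RefSeq gene were passed over. For CDKN2A the nearest profiles were SOCS1 (0.137), TSPEAR-AS2 (0.142) and KCP (0.158). For CDKN3 they were C15orf39 (0.0725), COQ7 (0.0785) and NACC2 (0.0805). The nearest profiles of CDKN3 were closer than those of CDKN2A, and the arrays behind both measures are the same 8.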

How the data were processed

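Gene expression of RKO cells was measured from total RNA, labelled with Cy3, on 9 one-colour Agilent arrays (SurePrint G3 Human GE v2). The authors deposited Feature Extraction 10.7.3.1 output, in which the processed signal is a linear intensity after background subtraction and detrending within the array, with no normalization between arrays; a deposited value table held the same intensities rounded. The study's methods name GeneSpring GX for the analysis, with its settings not given in the sources used here. Here log2 of the processed signal minus each array's 75th percentile over 58717 non-control spots was taken, outlier spots were left out and the spots of a probe were averaged. Probes had to be well above background on all arrays of at least 1 group (by most of a probe's spots), which left 23726 probes for the 8 siRNA arrays and 27171 with the 5-aza-dC array. The 8 siRNA arrays entered 1 limma 3.58.1 fit (R 4.3.3) for the comparisons among them. All 9 arrays entered another fit, used only for 5-aza-dC against siCONT. Benjamini-Hochberg adjustment ran over all probes of a fit in each comparison, with a threshold of 0.05. The script was tested on simulated data. Coordinates of probes are hg19 and those of promoters GRCh38.p14. Of the probes, 28174 were named through RefSeq accessions. The number of arrays limits the precision.

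The genes named in the text were every member probe, UHRF1, CDKN1C, MDM2, the 2 largest rises and falls among called genes of each list in siUHRF1 + TSA against siCONT, and the 3 nearest profiles of each called member above background on all 8 siRNA arrays. The members and lists were chosen with earlier results of these data known. Alternatives covered background correction, scaling, filters, outlier spots, the value table, the variance prior, the arrays in the fit, a replicate block, other call rules and tests, and leaving out each array.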

Additional observations from a re-analysis of the deposited data

How the results depend on the processing

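The number of inhibitor genes called depended on the setting, while directions of called probes held on the siRNA arrays. The main counts were 1 (siCONT + TSA against siCONT), 3 (siUHRF1 + TSA against siCONT) and 2 (siUHRF1 + TSA against siUHRF1), the last 2 with CDKN2B. Of all probes 10.4%, 23.2% and 15.5% were called. Normexp correction gave 0, 1 and 0, beside 1.77%, 7.14% and 3.37%. No filter on dim probes gave 0, 0 and 1 (CDKN2B alone), beside 1.32%, 7.27% and 3.74%. Quantile normalization gave 0 in siCONT + TSA. For siUHRF1 + TSA against siUHRF1, spike-in scaling gave 1 (CDKN2B), beside 4.72%, and only the arrays compared 0, beside 2.77%. There the 75th percentile over detected probes and trended and robust eBayes gave 4 each (2 lower, CDKN2B higher), beside 15.7% and 19.2%. In siCONT + TSA trended and robust eBayes and only the arrays compared gave 2 each (1 lower), beside 14.5% and 44.1%.

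Unadjusted p below 0.05 gave 1 for siUHRF1 alone and 3 for siCONT + TSA (1 lower, CDKN2B higher). It gave 2 for siUHRF1 + TSA against siCONT + TSA and 6 against siUHRF1 (3 lower, CDKN2B higher). Of all probes 8.91%, 28.9%, 17.4% and 32.7% passed. With over 2-fold added it gave 1 against siCONT and 1 against siUHRF1. The methods' t-test at unadjusted p gave 2 for siCONT + TSA, CDKN3 higher and CDKN1A lower. For siUHRF1 + TSA it gave 2 against siCONT (CDKN2A and CDKN2B), 2 against siCONT + TSA and 0 against siUHRF1. Of all probes 41.4%, 29.8%, 15.3% and 14.1% passed. After Benjamini-Hochberg this t-test gave 0 for siUHRF1 + TSA against siCONT and 0 against siUHRF1, beside 1.04% and 0.00422%. Tukey's test gave 0, 1 (CDKN1A) and 1 (CDKN2B) for siUHRF1 + TSA against siCONT, siCONT + TSA and siUHRF1. Of all probes 22.6%, 9.27% and 18% passed it. Leaving out 1 array, which left 1 in its group, moved the count in every comparison but siUHRF1 alone and the difference of effects. The share of all probes called moved as well. For 5-aza-dC the count was lowest without either siCONT array.

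The replicate number as a block gave the main counts and genes again (0, 1, 3, 0, 2 and 0 in the 6 comparisons of siRNA arrays). Of all probes 0.573%, 8.71%, 22.4%, 3.14%, 13.9% and 0.299% were called. Pairing the arrays by siRNA and number gave 2 for siCONT + TSA (CDKN1A and CDKN3), beside 15.7%. It gave 4 for siUHRF1 + TSA against siUHRF1 (CDKN1A, CDKN2B, CDKN2C and CDKN3), beside 21.6%. Deviations of same-numbered arrays correlated at 0.466 between siUHRF1 and siUHRF1 + TSA, which share siRNAs, and at -0.0469 to 0.0796 between the other groups. Slide and scan were not run as a block, as each siRNA group lay on 1 slide.

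For 5-aza-dC against siCONT the sign turned under spike-in scaling for CDKN1A (-0.81), both CDKN3 probes (-0.28 and -0.52), CDKN2B (-1.18) and A_24_P81841 of CDKN1B (-1.15), and under normexp for CDKN2B (-0.94), the last below background in both groups. Of 1476 probe values under an alternative, 1242 kept direction and call, 114 lost a call, 66 gained one and 48 changed sign without a call. The share of calls that were higher was 62.1% in siCONT + TSA, but 49% with normexp, 48.7% with the percentile over detected probes and 75.8% with spike-ins. In siUHRF1 + TSA against siCONT it was 64.5%, but 52.8% with quantile normalization and 90.2% with spike-ins, and under 5-aza-dC 49.3%, but 33.1% with normexp and 11.6% with spike-ins. The cause of these changes was not tested. With 2 arrays a group, and CDKN2B and A_33_P3411628 at the limit of detection, small differences of these genes could not be measured.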
